A study of Mus musculus with 12 samples.

Results

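Importins are carrier proteins that bind a cargo in the cytoplasm, take it through the nuclear pore and release it in the nucleus when they meet the GTP-bound form of the small GTPase Ran. The 10 genes described here encode carriers of the importin β family. They are Ipo4, Ipo5, Ipo7, Ipo8, Ipo9, Ipo11, Ipo13, Kpnb1, Tnpo1 and Tnpo3, out of 20409 genes counted, and they were taken by name from the per-gene tables. The group was put together around Ipo7, which was selected on its over-representation in sorted against unsorted cells of the repressor screen, so every Ipo7 value from that screen is given as a description without a test.

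ORFtag is an insertional tagging method in which a retroviral cassette with a promoter, a resistance gene, a tag and a splice donor makes the cell splice the tag onto the next downstream exon. It was used in diploid mouse embryonic stem cells (line AN3-12) that carried a GFP reporter, and each reporter line was 1 clone. The activator screen used a 7xTetO-pMYLPF-Puro-IRES-GFP reporter on chromosome 15 and the repressor screen, on the same chromosome, one in which pEF1-BFP precedes 7xTetO-pPGK-Puro and ends in IRES-GFP, both with TetR plus a nuclear localization signal as the tag. The screen for posttranscriptional gene regulators (PTGR) used a randomly integrated Puro-IRES-GFP-10xBoxB reporter, a λN tag and cells with an inducible Cre. Sorted cells had gained GFP in the activator screen and lost it in the repressor screen. Sorted PTGR cells had lost GFP over repeated sorts and regained it once the boxB sites were removed by Cre. Unsorted cells were transduced and drug-selected in the same way and were not sorted.

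Each screen had 2 sorted and 2 unsorted libraries, 12 in all, and a unique insertion position at most 200 kb from its assigned exon counted as 1 insertion. The sorted libraries held 14705 to 60980 such insertions and the unsorted libraries 54088 to 233799. Levels are given as insertions per 10000 of the library. The background was the sum of the 6 unsorted libraries, 1022126 insertions. Intervals are 95% Wilson intervals for shares, and a count of 0 was read as up to 3 counts. Both cover counting error only. The libraries were made from genomic DNA, so expression markers of the cell type were not analysed here.

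The sequence that decides which protein is tagged is the splice acceptor that receives the cassette. For 8 of the 10 genes it was that of exon 2 for most insertions. The windows below (GRCm38, RefSeq assembly, on the strand of the gene, read 5′ to 3′) hold the last 20 bases of the intron and the first 10 of the exon for the 6 genes with the most insertions, and the capitals mark the acceptor dinucleotide. They are shown because each insertion counted at these genes was assigned by position to the acceptor shown or to another acceptor of the same gene. No spliced transcript was measured in these libraries.
Ipo7: tctttgtttatttgttttAGgcacacaagt
Tnpo1: gtgtctggcttgatttgcAGcaaaccaaga
Ipo5: cttgtcactgtctcatgcAGgaaacctatg
Tnpo3: ttttatttatttactttcAGgttcacgctt
Ipo11: tttggtgcattttcttgcAGttagcttctg
Kpnb1: ccccccatctctcccggcAGatcggctgga

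The Ipo7 window lies at chr7:110027051-110027080 on the plus strand, at the start of exon 2 of 25. The Tnpo1 window (chr13:98890781-98890810), the Tnpo3 window (chr6:29589220-29589249) and the Kpnb1 window (chr11:97187438-97187467) are exon 2 acceptors on the minus strand. The Ipo5 window (chr14:120917336-120917365) is an exon 2 acceptor on the plus strand. The Ipo11 window (chr13:106900808-106900837, minus strand) belongs to exon 5. All 6 windows end the intron in AG, and in the 15 bases before it they held 10 (Ipo5, Ipo11, Tnpo1) or 12 pyrimidines (Ipo7, Tnpo3, Kpnb1).

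Ipo7 encodes importin-7, a carrier known for importing ribosomal proteins and, as a dimer with importin β1, linker histone H1. The gene spans 110018274 to 110056609 on chromosome 7 in the GENCODE vM21 annotation. Exon 1 holds the first 28 codons of 1038, so exon 2 starts with a whole codon and a fusion there lacks 28 residues of the native protein. The cassettes were a mix of 3 reading frames. The lists do not give the frame of an insertion, so whether a given fusion is in frame is not known. In the repressor screen, 476 and 433 insertions were assigned to Ipo7 in sorted replicates 1 and 2, or 214 and 285 per 10000. The 2 unsorted libraries of that screen held 117 and 109, or 6.71 and 6.16 per 10000. The sorted values lay far above all 6 unsorted libraries. Ipo7 was the gene with the third highest count in both sorted libraries, where it took 2.14% (95% interval 1.956 to 2.336) and 2.85% (2.60 to 3.12) of all insertions. The log2 odds ratio against the background was 6.06 ± 0.09 (SE from counting error), or a share 65.1 times that of the background. A gene was called where the log2 odds ratio reached 1 and the adjusted p lay under 0.001. Of 2346 genes tested, 192 (8.18%) were called, and Ipo7 ranked 12 among them by log2 odds ratio and 3 by sorted insertions. Taken alone, sorted replicates 1 and 2 gave log2 odds ratios of 5.87 and 6.30. The median over the called genes was 4.30. Among the other importins tested in this screen Ipo11 stood highest, with a log2 odds ratio of -0.35 ± 0.73. That is under the background level and far from the threshold of 1. No tested importin fell between Ipo11 and Ipo7.

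The level of Ipo7 differed among the unsorted libraries. In the activator and PTGR screens the 4 unsorted libraries held 2.11 and 2.70, and 2.05 and 2.59 per 10000, with a mean of 2.36. Both repressor unsorted libraries lay above all of these, at 6.16 and 6.71. By count Ipo7 ranked 47 and 71 among all genes there, and between 764 and 1148 in the others. Of their Ipo7 positions, 45 of 117 (38.5%) and 65 of 109 (59.6%) were also listed in a repressor sorted library, whereas in the other unsorted libraries these were 7 of 37 and 10 of 56 (activator) and 12 of 48 and 3 of 14 (PTGR). The positions not found in a repressor sorted library amounted to 4.13 and 2.49 per 10000 in the repressor unsorted libraries and 1.54 to 2.22 in the others. With the own unsorted pair as the background, the log2 odds ratio of Ipo7 in the repressor screen was 5.27, and with the 4 unsorted libraries of the other screens it was 6.75. How far shared positions account for the higher unsorted level was not tested.

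**Figure D1:**
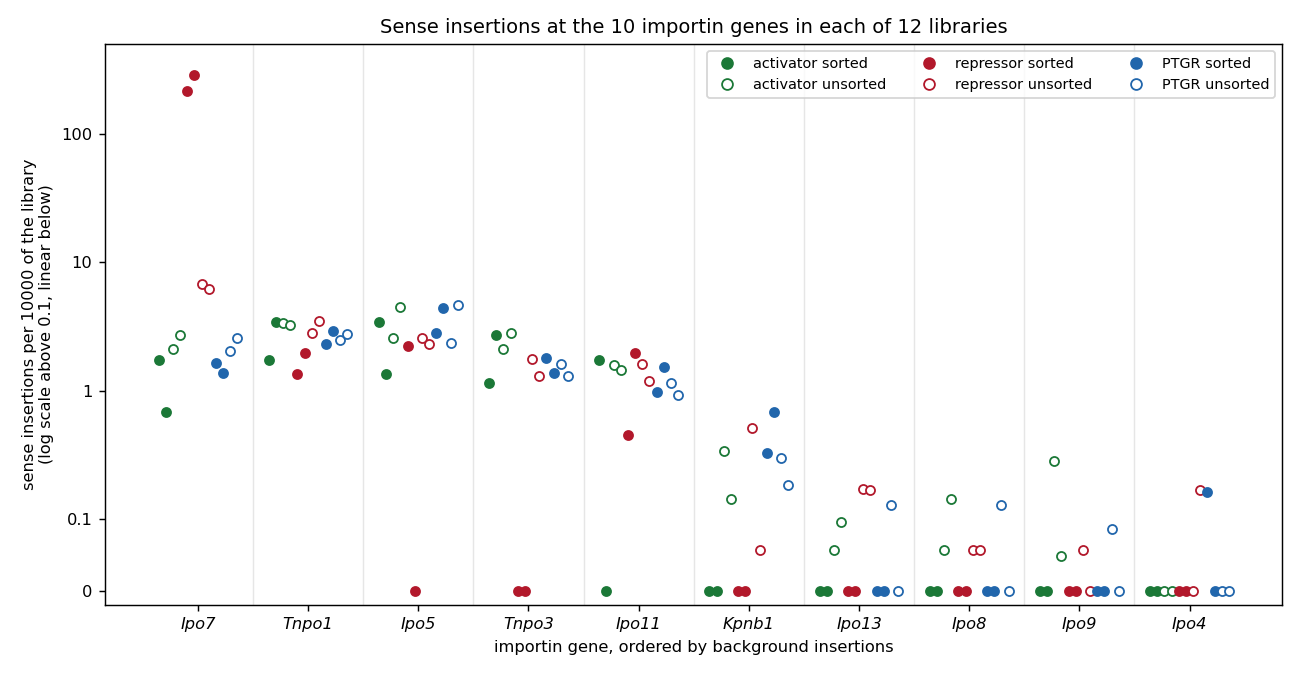
Sense insertions per 10000 of each library (y axis, log scale above 0.1 and linear below) at the 10 importin genes (x axis). Each point is 1 library, filled for sorted and open for unsorted cells, colored by screen. The repressor sorted libraries stand at 214 and 285 for Ipo7, while the other members stay below 5 in every library.

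The sorted repressor insertions at Ipo7 lay at many distinct positions. The 2 libraries held 752 distinct positions between them, of which 157 were in both. That is 33.0% of the positions in replicate 1 and 36.3% of those in replicate 2, compared with 18.8% and 27.5% over all genes. Positions at most 10 bp apart on 1 strand, counted as 1, left 340 and 311 in the sorted and 97 and 106 in the unsorted libraries, and the log2 odds ratio was then 5.80. No read counts per insertion were used, and whether shared positions come from the same cells was not tested.

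Each insertion was assigned once with the strand as mapped (sense) and once with the strand turned (reversed). Only a sense insertion points its splice donor at the gene. In the repressor sorted libraries Ipo7 had 3 and 4 reversed insertions against 476 and 433 sense insertions, so that 99.4% (98.2 to 99.8) and 99.1% (97.7 to 99.6) were sense. In the repressor unsorted libraries the sense share was 73.1% and 74.1%. It was 44.6% and 49.1% in the activator unsorted libraries, and 48.0% and 73.7% in PTGR unsorted replicates 1 and 2. The last value rests on 14 sense and 5 reversed insertions (51.2 to 88.2), so the unsorted libraries of the other screens overlapped the repressor ones. Pooled, those 4 libraries held 155 sense and 161 reversed insertions. The reversed level per 10000 in the repressor sorted libraries lay close to the reversed background, with a log2 odds ratio of -0.08 ± 0.55 for Ipo7.

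**Figure D2:**
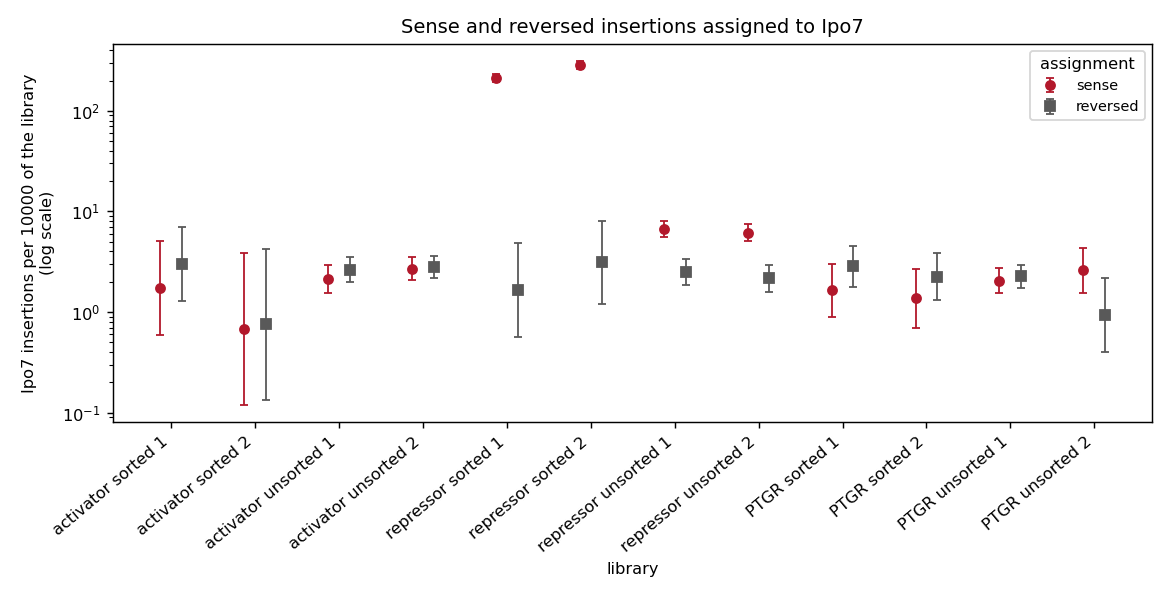
Sense (circles) and reversed (squares) insertions assigned to Ipo7 per 10000 insertions of the same assignment (y axis, log scale) in each of the 12 libraries (x axis), with 95% Wilson intervals. The sense values of the repressor sorted libraries, 214 and 285, stand apart, while the reversed values stay at the level of the other libraries.

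Nearly all Ipo7 insertions were assigned to exon 2. In the repressor sorted libraries these were 474 of 476 (99.6%, 98.5 to 99.9) and 432 of 433 (99.8%, 98.7 to 100.0). The 3 others were assigned to exon 10 (1 insertion) and exon 13 (1 in each library). In the background, 379 of 381 (99.5%, 98.1 to 99.9) went to exon 2 and the remaining 2 to exon 7. The exon share was thus alike with and without sorting, and only 22 Ipo7 insertions came from the other 4 sorted libraries, all of them at exon 2.

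Most of the cassettes did not lie in Ipo7 itself but upstream of its first exon. In the repressor sorted libraries 451 of 476 (94.7%) and 410 of 433 (94.7%) lay upstream of the annotated start, and in the background 360 of 381 (94.5%, 91.7 to 96.4). Of the 909 sorted insertions, 842 (92.6%, 90.7 to 94.2) lay in the 31345 bp between the start of Tmem41b, the divergently transcribed gene upstream, and the start of Ipo7. This interval takes the 909 as independent, although 157 positions were in both libraries and are counted in each. A further 40 (4.40%) lay in the 8562 bp of intron 1, 5 (0.550%) in exon 1 and 19 (2.09%) within Tmem41b. The median distance to the assigned exon was 26482 bp in the sorted repressor libraries and 27732 bp in the background.

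The far end of the distribution differed in range. The most distant sorted repressor insertion lay 41363 bp from its exon, and 0 of 909 lay over 50 kb away. That allows a share of up to 0.330% if the 909 are taken as independent. In the background 51 of 381 (13.4%, 10.3 to 17.2) lay over 50 kb away and the most distant at 184279 bp. The 4 sorted libraries of the other screens held 6 of 22 (27.3%, 13.2 to 48.2) in that range. Counting only insertions within 50 kb gave a log2 odds ratio of 6.00 for Ipo7 in the repressor screen. These values use the contrast that selected Ipo7, so no test was made.

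**Figure D3:**
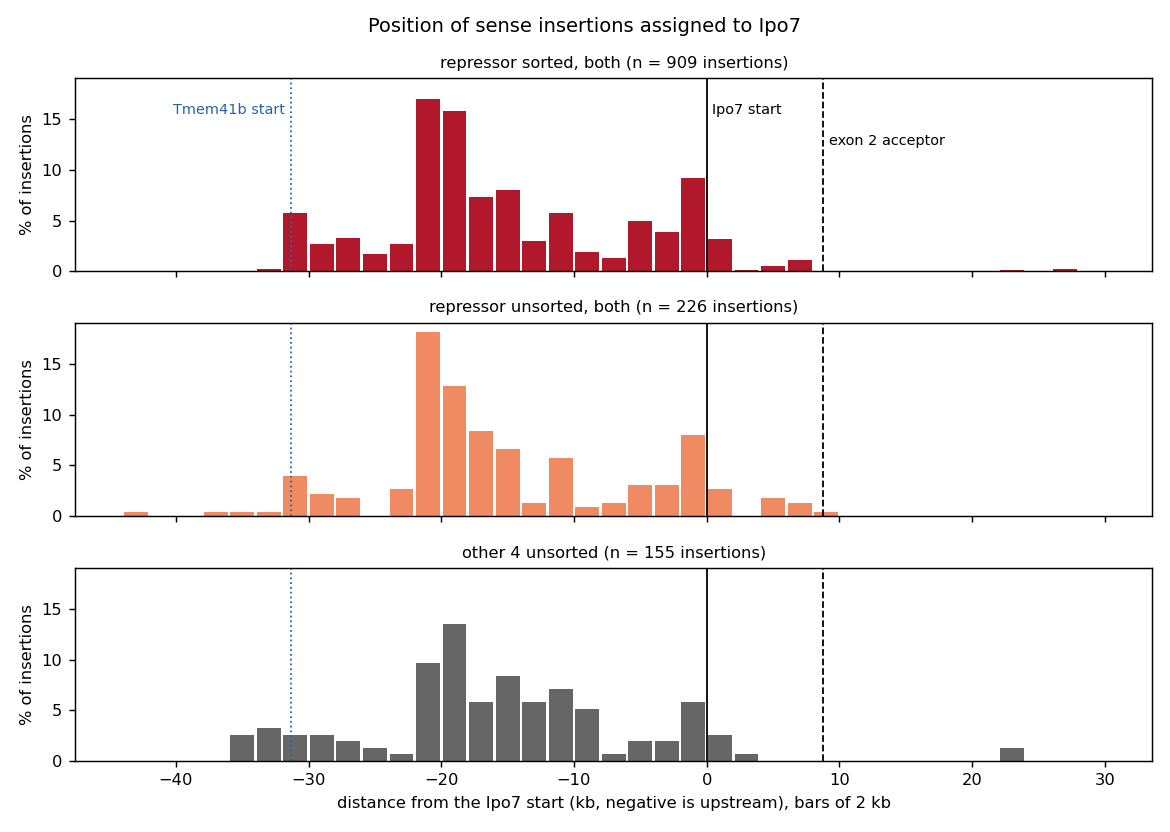
Share of the Ipo7 sense insertions (y axis, percent) in windows of 2 kb by distance from the Ipo7 start (x axis, kb, negative is upstream) in the repressor sorted libraries, the repressor unsorted libraries and the other 4 unsorted libraries. In all 3 panels most insertions lie between the Tmem41b start (dotted line) and the Ipo7 start (solid line), before the exon 2 acceptor (dashed line). Insertions further upstream than the plotted range, found only in unsorted libraries among these panels, are counted in the total but not drawn.

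The genes next to Ipo7 were read from the same insertions. Tmem41b, which encodes an endoplasmic reticulum membrane protein needed for autophagosome formation, lies on the opposite strand. Its sense insertions numbered 3 and 5 in the repressor sorted libraries and 347 in the background (log2 odds ratio -0.67 ± 0.52), and the gene was not called. Its reversed insertions numbered 477 and 436, of which 476 and 433 were the very positions counted as sense insertions of Ipo7. Tmem41b was accordingly among the genes called for reversed insertions in this screen, with a log2 odds ratio of 5.77 ± 0.08. Zfp143, a zinc-finger transcription factor gene 4608 bp downstream on the strand of Ipo7, had 0 sense insertions in both repressor sorted libraries and 20 in the background. A count of 0 allows up to 0.801 per 10000 over the pair, above the Zfp143 background of 0.196. Neither a rise below that limit nor a fall was detectable. The annotation also places the small nucleolar RNA genes Gm25636 and Snora23 within Ipo7. The antisense transcript 1600010M07Rik, from 109998376 to 110151202, runs across Ipo7 and also covers part of the stretch between Tmem41b and Ipo7.

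In the activator screen, which asked which tagged proteins raise GFP, Ipo7 had 3 and 1 insertions in the sorted libraries, or 1.72 and 0.680 per 10000. Both lay below all 6 unsorted libraries, as they did for 37.5% of the 2986 genes with at least 100 background insertions. The log2 odds ratio was -1.58 ± 0.73 against all 6 unsorted libraries and -0.96 against the own unsorted pair. In the edgeR quasi-likelihood test, which takes the spread between libraries into account, the log2 fold change was -0.60 with a Benjamini-Hochberg adjusted p of 0.910. So no difference was called in this test of 2 sorted against 2 unsorted libraries.

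In the PTGR screen, Ipo7 had 10 and 8 insertions in the sorted libraries, or 1.64 and 1.37 per 10000. Both again lay below all 6 unsorted libraries, as did 12.2% of the same genes. The log2 odds ratio was -1.31 ± 0.35 against the 6 unsorted libraries and -0.52 against the own pair. With edgeR the log2 fold change was -0.44 (adjusted p = 0.997). The sorted-minus-unsorted change of Ipo7 differed between PTGR and activator by 0.08 on the log2 scale (edgeR, adjusted p = 0.999).

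The other 9 members were examined in all 3 screens, as far as their counts allowed. At least 3 sorted insertions, the number needed for the one-sided Fisher's exact test, were assigned to 5 of the 10 importins in the activator, 4 in the repressor and 6 in the PTGR screen, Ipo7 included each time. Leaving out Ipo7 in the repressor screen, whose call was fixed by its selection, 0 of 5, 0 of 3 and 0 of 6 were called, beside 4.64%, 8.18% and 0.666% of all genes tested. None of the remaining importins tested had an unadjusted p below 0.05 in this test. The median log2 odds ratio of the tested importins was -0.29 (activator) and -0.17 (PTGR), beside -0.14 and 0.14 over all genes tested. The 3 tested in the repressor screen beside Ipo7 stood at -1.16, -0.93 and -0.35, where the median over all genes was -0.39.

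**Figure D4:**
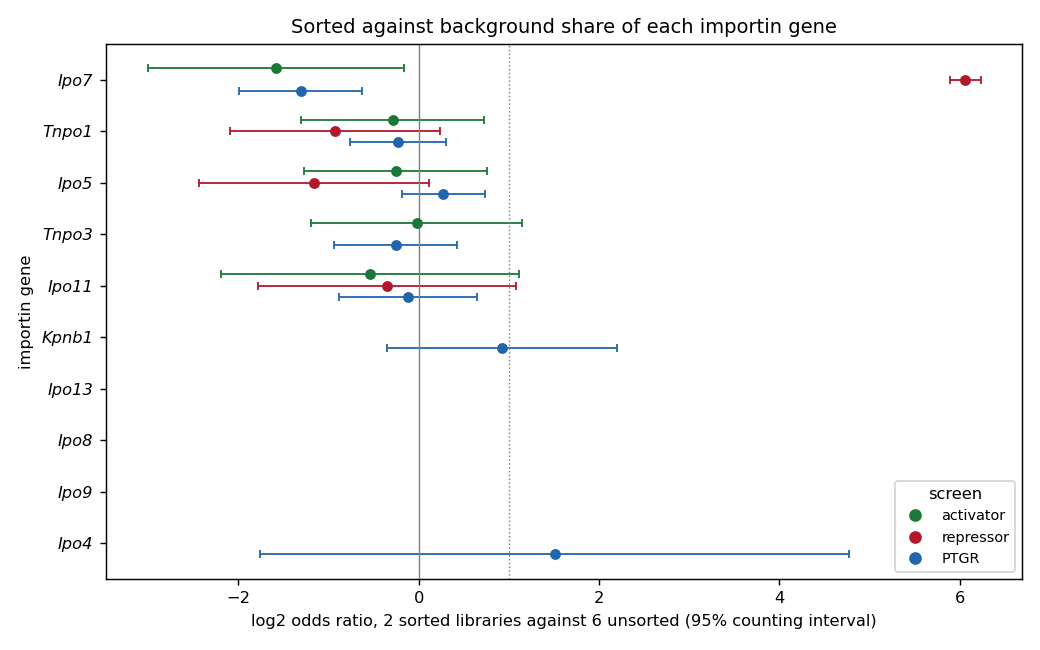
Log2 odds ratio of the 2 sorted libraries against the 6 unsorted ones (x axis) for each importin gene (y axis) in each screen (color), with 95% counting intervals. The dotted line marks the threshold of 1, and genes without a point had 0 sorted insertions. Ipo7 in the repressor screen stands at 6.06, while all other intervals but those of Ipo7 in the activator and PTGR screens include 0.

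Tnpo1 encodes transportin-1, which imports RNA-binding proteins with a proline-tyrosine nuclear localization signal. It was the member with the second highest background, 311 insertions, with a mean of 3.03 ± 0.40 per 10000 (SD, n = 6). In the repressor screen it had 3 insertions in each sorted library, or 1.35 and 1.97 per 10000, against 2.81 and 3.50 in the unsorted pair. Both sorted values lay below all 6 unsorted libraries. The log2 odds ratio was -0.93 ± 0.59, and the edgeR change was -0.18 (adjusted p = 0.919). In the activator screen the sorted levels were 1.72 and 3.40 and in the PTGR screen 2.296 and 2.903 per 10000, overlapping the unsorted levels, with log2 odds ratios of -0.29 ± 0.52 and -0.23 ± 0.27. Of the Tnpo1 insertions in all libraries, 274 of 356 (77.0%) lay over 50 kb from the assigned exon, so its counts depended most on the distance allowed.

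Ipo5 encodes importin-5, which imports histones and ribosomal proteins. Its background was 304 insertions, 3.15 ± 1.09 per 10000 (SD, n = 6). In the PTGR screen it had 17 and 26 sorted insertions, or 2.79 and 4.44 per 10000, within the range of 2.32 to 4.62 over the unsorted libraries. The log2 odds ratio was 0.27 ± 0.24 (Fisher's exact test, adjusted p = 0.639). In the repressor screen sorted replicate 1 had 5 insertions and replicate 2 had 0, both below every unsorted library, with a log2 odds ratio of -1.16 ± 0.65. In the activator screen the counts were 6 and 2, or 3.45 and 1.36 per 10000, and the log2 odds ratio was -0.26 ± 0.52. In edgeR the adjusted p for Ipo5 was 0.979 in the activator, 0.970 in the repressor and 0.997 in the PTGR screen.

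Tnpo3 encodes transportin-3, the carrier of serine- and arginine-rich splicing factors. No sense Tnpo3 insertion was listed in either repressor sorted library, whereas the repressor unsorted libraries held 31 and 23 and the background 194. A count of 0 of the 37470 insertions in the sorted pair allows up to 0.801 per 10000 over the pair, at least 2.37-fold lower than the background of 1.898. In edgeR the adjusted p was 0.143 (unadjusted p = 0.0184) with TMM scaling, where the median log2 change over all genes was -0.38 and 32 of 2779 genes were called lower. On library sizes alone the adjusted p was 0.0142, with a median of -1.17 and 654 genes called lower. Leaving out sorted replicate 1 or 2 gave an adjusted p of 0.535 or 0.523, but each of these fits has 1 sorted library, takes its spread from the unsorted pair (shared over genes) and assumes that the lone library varies alike. In the other screens Tnpo3 stood near its background. It had 2 and 4 insertions in the activator sorted libraries (log2 odds ratio -0.02 ± 0.60) and 11 and 8 in the PTGR sorted libraries (-0.26 ± 0.35). Reversed Tnpo3 insertions in the repressor sorted pair numbered 8, with 217 in the background.

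The low repressor values of Tnpo1, Ipo5 and Tnpo3 stand beside a general one. In this screen 61.8% of genes with at least 100 background insertions had both sorted libraries below all 6 unsorted ones, and 3.28% had both above. Among the 4 importins other than Ipo7 with that many background insertions, 3 were below and 0 above. In the activator screen 1 of 5 (Ipo7) was below and 0 above, and 2.48% of all genes were above. In the PTGR screen 1 (Ipo7) was below and 0 above, with 3.45% of all genes above.

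Ipo11 encodes importin-11, which carries ubiquitin-conjugating enzymes. Its background was 139 insertions, 1.32 ± 0.27 per 10000 (SD, n = 6), spread over more exons than that of Ipo7. Of its 161 insertions in all libraries, 51 (31.7%) were assigned to exon 5, 45 to exon 2, and 24 to exon 25. The sorted counts were 3 and 0 in the activator, 1 and 3 in the repressor and 6 and 9 in the PTGR screen. They overlapped the unsorted levels in each screen, with log2 odds ratios of -0.54 ± 0.84, -0.35 ± 0.73 and -0.12 ± 0.39.

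Kpnb1 encodes importin β1, the main carrier of proteins with a classical nuclear localization signal and the partner of importin-7 in histone H1 import. It had 27 background insertions. In the PTGR screen it had 2 and 4 sorted insertions, or 0.328 and 0.683 per 10000, against 0.0565 to 0.516 in the unsorted libraries, and the log2 odds ratio was 0.93 ± 0.65 (Fisher's exact test, adjusted p = 0.606). In the activator and repressor sorted libraries it had 0 sense insertions, which allows up to 0.935 and 0.801 per 10000 over the pair. Both limits lie above the background of 0.264, so a lower level was not detectable at this depth.

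The 4 remaining members were hardly reached by the cassette. Ipo13, the carrier of the SUMO-conjugating enzyme Ubc9, had 12 background insertions, and 12 of 12 went to exon 2. Ipo8, which is known to bind Argonaute proteins, and Ipo9, a carrier of core histones, had 9 each, and Ipo4, a further histone carrier, had 3. The median over all 20409 genes was 15. In the 6 sorted libraries Ipo8, Ipo9 and Ipo13 had 0 sense insertions, and Ipo4 had 1, in PTGR sorted replicate 1. Of reversed insertions, Ipo8 had 1 in each repressor sorted library, and Ipo9 and Ipo4 had 1 each in PTGR sorted replicate 1. All were under the minimum of 3 for the Fisher test. For Ipo8 the background was 0.0881 per 10000, under the limits that a count of 0 allows of 0.935 in the activator, 0.801 in the repressor and 0.251 in the PTGR screen, so neither a rise below these limits nor a fall was detectable.

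Ipo8 is the closest relative of Ipo7 in sequence. Translated from the annotated coding sequences, the 2 proteins had 647 identical residues of 1005 aligned (64.4%). Exon 1 holds 28 codons in both genes, as it also does in Ipo13. The median identity over the 45 pairs of members was 23.0% and the lowest 19.8%. The readouts of this pair cannot be compared, since Ipo7 had 381 background insertions and Ipo8 had 9.

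The edgeR test, fitted with 2 sorted against 2 unsorted libraries per screen, kept 5 importins in the activator, 5 in the repressor and 3 in the PTGR screen. With an adjusted p under 0.05 as the limit, 0 importins were higher and 0 lower in the activator screen, beside 4.00% and 0.0667% of all genes tested. In the repressor screen, without Ipo7, 0 of 4 were higher and 0 lower, beside 7.20% and 1.15% of genes. Among PTGR libraries 0 were higher and 0 lower, beside 2.24% and 0.236%. Tnpo3 in the repressor screen was the 1 importin with an unadjusted p below 0.05, by edgeR and by DESeq2 alike. The share of all genes at that unadjusted level is not given here. The study's methods call the 2 libraries of a group biological replicates, and the p-values rest on the spread within such pairs. The repressor sorted libraries shared 18.8% and 27.5% of their positions with each other. In the activator sorted pair these shares were 2.21% and 2.61%, and in the PTGR sorted pair 0.648% and 0.675%. Whether the repressor sorted pair is independent was not tested, and the p-values of that screen carry this limit.

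Whether a member moved differently in 2 screens was tested in 1 fit of all 12 libraries. Leaving out Ipo7 wherever the repressor screen was involved, 0 of 4 importins differed between repressor and activator, 0 of 5 between PTGR and activator and 0 of 4 between PTGR and repressor, beside 8.25%, 3.89% and 6.54% of all genes tested. Tnpo3 had an unadjusted p of 0.0379 for repressor against activator and of 0.0235 for PTGR against repressor, and adjusted p of 0.262 and 0.186. For reversed insertions, 0 importins were called of the 4, 5 and 6 tested in the activator, repressor and PTGR screens, beside 3.14%, 5.61% and 0.500% of all genes, and 0 of those tested (Ipo7 left out in the repressor screen) had an unadjusted p below 0.05.

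Other proteins of the nuclear transport pathway were read from 3 further lists. Of 16 other carriers (importins α, exportins and related proteins) 15 were in the tables, and of these 5, 3 and 12 were tested in the activator, repressor and PTGR screens. None was called by the Fisher test, and 2 (Kpna3 and Xpot, in the PTGR screen) had an unadjusted p below 0.05 in it. The share of all genes at that unadjusted level is not given here, so these 2 are not read as a result. The median log2 odds ratios were -0.99, -1.25 and 0.47. The 3 carriers most often hit without sorting were Ranbp17, Xpo6 and Xpo1, the main export receptor, with 582, 527 and 316 background insertions. In the repressor screen their log2 odds ratios were -1.25 ± 0.48, -1.27 ± 0.51 and -0.53 ± 0.52.

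The Ran cycle list held Ran, its activating protein Rangap1, its import factor Nutf2 and 4 others, of which 2, 1 and 5 were tested and none was called by the Fisher test. Ran had 12 and 9 insertions in the PTGR sorted libraries and 75 in the background, with a log2 odds ratio of 1.26 ± 0.36 (Fisher's exact test, adjusted p = 0.0584). Rangap1 had 4 and 0 insertions in the activator sorted libraries and 66 in the background, and Nutf2 had 5 and 3 in the PTGR sorted libraries and 59 in the background. Rangap1 was called for reversed insertions in the activator screen, with 49 sorted and 72 in the background. The member tested in the repressor screen was Ranbp3, named after its values were seen, with 3 and 2 sorted and 29 background insertions and a log2 odds ratio of 2.23 ± 0.70 (Fisher's exact test, adjusted p = 0.0594). Its adjusted p was 0.0723 by edgeR and 0.0206 by DESeq2. Ran, Rangap1 and Nutf2, with more background insertions, had 1, 0 and 0 in that sorted pair and missed the minimum of 3. Ranbp3 thus entered the Fisher test through its high sorted count, and its values are a description only.

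Of 27 nucleoporins, the building blocks of the nuclear pore, 26 were in the tables and 4, 3 and 18 were tested. None was called by the Fisher test or by edgeR, and 1, Nup205 in the PTGR screen, had an unadjusted p below 0.05 in the Fisher test. Without the share of all genes at that level, this is not read as a result. Nup160, Nup93 and Seh1l had the most background insertions, 195, 148 and 104. In the repressor sorted libraries Nup160 had 4 and 0, Nup93 had 2 and 2, and Seh1l had 0 and 0.

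The genes whose levels over the 12 libraries were most like those of Ipo7 were Gm35315, Sp3, Zfp825, Atf7ip and Sumo2. The measure was Pearson's correlation of log2(insertions per 10000 + 0.5) over 12 libraries among 9731 genes with at least 20 insertions, and it ran from 0.991 to 0.996. These points share libraries and depth, and include the values Ipo7 was selected on. Sp3, a transcription factor gene, had 598 and 435 insertions in the repressor sorted libraries and 133 and 130 in the unsorted pair. Its unsorted counts were 62 and 67 in the activator and 78 and 15 in the PTGR screen. Atf7ip, a cofactor of the histone methyltransferase SETDB1, had 284 and 276 in the repressor sorted and 209 and 176 in the unsorted pair. Its unsorted counts were 104 and 130 in the activator and 120 and 27 in the PTGR screen. These counts are not scaled to library size.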

How the data were processed

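Genomic DNA around each cassette was amplified by inverse PCR and sequenced. Per the study's methods and submitters' notes, the authors trimmed reads with Trim Galore (0.6.0), aligned them to mm10 (Bowtie2), filtered alignments (SAMtools 1.9), and gave every insertion the first splice acceptor downstream of it. The deposited lists (24, sense and reversed) give positions, exon numbers and distances and carry no read counts. The deposited tables give insertion counts per gene as the authors' sums, used here for gene names, and the authors' odds ratios and adjusted p-values, not used.

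Unique positions within 200 kb were counted per gene and library, and positions listed repeatedly (all of those in the repressor unsorted lists) were counted once. Calls used a one-sided Fisher's exact test over all genes with at least 3 sorted insertions (Benjamini-Hochberg adjusted p below 0.001, log2 odds ratio of at least 1). Spread was tested with edgeR 4.0.16 (filterByExpr, TMM) and DESeq2 1.42.0 in R 4.3.3. The Fisher and edgeR tests were checked on simulated data. Gene models came from GENCODE vM21 on GRCm38. The authors' release was not used here. Members, lists and tests were chosen with earlier results of these data known. Genes named are the 10 members, of each list the 3 with most background insertions and any called, the neighbours of Ipo7, and the 5 genes most like it. Ranbp3, Kpna3, Xpot and Nup205 fall outside this rule and were named after their values were seen.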

Additional observations from a re-analysis of the deposited data

Results flagged for a closer look

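The reversed insertions at Ipo7 stood at 0.93 per 10000 in PTGR unsorted replicate 2, from 5 insertions, while the other 5 unsorted libraries held 2.16 to 2.82. This lowest value lay further from the rest than the critical gap for 6 values at the 95% level. About 1 in 20 groups is marked in this way by chance, and this library had the fewest insertions of the unsorted ones.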

How the results depend on the processing

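Of 148 recalculated counts and shares, 146 matched the reported value or stayed within 1.5 times of it. The reported counts of 1 were Ipo7 in the repressor screen, where its selection fixed the call, and the shares were of Ipo7 insertions there. The other reported counts were 0 for few testable genes, so this match says little about how stable the results are. On library sizes without TMM, edgeR called 2 importins in the repressor screen, Ipo7 (selected on this contrast) and Tnpo3, and 1 (Tnpo3) in the difference between PTGR and repressor. With the replicate block, edgeR called no importin in the repressor screen besides Ipo7, whose call was fixed by its selection, and 0 in the other 2 screens. Deviations of same-numbered libraries correlated over genes at 0.0643 (activator), -0.0299 (repressor) and 0.334 (PTGR). Same-numbered sorted and unsorted libraries shared more positions than differently numbered ones in the PTGR screen (19.5% against 0.397% of sorted replicate 1, 6.98% against 1.93% of replicate 2) and the activator screen (5.17% against 2.35%, 19.2% against 1.39%). In the repressor screen sorted replicate 1 shared 8.50% with unsorted replicate 1 and 10.02% with replicate 2, and sorted replicate 2 shared 8.72% with its own number and 5.47% with the other. The log2 value of Ipo7 in the repressor screen ran from 5.27 (edgeR, library sizes alone) to 7.13 (totals without called genes). Of 234 recalculated log2 values, 202 kept their sign and whether the gene was called, and 32 changed sign without being called. Merging positions within 10 bp, the unsorted libraries of the other 2 screens as background, and leaving out unsorted positions also found in sorted cells were chosen after seeing the data. Depth limited Ipo4, Ipo8, Ipo9 and Ipo13, where no decrease could be seen in any screen.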
